A study of Homo sapiens with 9 samples.

Results

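The transfections of this series were carried out in 3 cell passages of HEK293, an easily transfected line derived from human embryonic kidney, and the comparison described here is between those passages. The members were all 9 of the 9 libraries, grouped by the replicate number in their labels, so that each passage held 1 library of cells given the empty vector (EV), 1 of cells given the ADARB1 isoform without its *Alu* exon (Short) and 1 of cells given the isoform with it (Long). For every library, polyadenylated RNA was sequenced with a strand-specific kit. The RNA came from cells kept in DMEM and 10% FBS, 48 hours after a transient transfection by the lipid reagent Lipofectamine. The labels give only the numbers 1 to 3. The study's methods state that 3 cell passages were used, and give neither the passage counts nor the dates. That a number stands for the same passage in all 3 groups is inferred from this, and the numbers carry no order in time. Transfection, RNA extraction and library preparation of the same number cannot be told apart from the passage itself. Each passage was a culture of a single cell line and held 1 library per transfection, without repeat cultures of the same transfection. The p-values therefore measure how far a passage difference varied between EV, Short and Long cells, and not a spread between donors.

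Cells that are carried from dish to dish do not enter each experiment in the same state, and several well known programmes read that state. When oxygen is scarce, prolyl hydroxylases such as EGLN3 no longer mark the hypoxia-inducible factors for destruction, and these factors bind a short element near genes for glucose uptake, glycolysis and blood vessel growth. When amino acids run low or proteins fold poorly in the endoplasmic reticulum, the translation of ATF4 rises, and ATF4 switches on genes for amino acid synthesis, amino acid transport and tRNA charging. Heat shock factors answer unfolded protein in the cytosol by inducing chaperones, and the nucleolus adjusts ribosome assembly to growth. The hypoxia-inducible factors, ATF4 and the heat shock factors each read a small sequence motif next to their target genes.

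Matches to these elements were found in the promoters of some of the genes called between the passages, and 2 promoters with a match are shown for each element. The windows below are 60 bases long, were taken from RefSeq promoters on GRCh38.p14, are written 5′ to 3′ on the strand of the gene and lie before the annotated start of transcription. Capitals mark a match on either strand to the hypoxia response core ACGTG, to the amino acid response element TGATGNAA, or to the heat shock element, searched as GAANNTTC and TTCNNGAA, and matches may overlap. The BHLHE40 window is chr3:4979248-4979307, the ANKRD37 window is chr4:185396658-185396717, the ASNS window is chr7:97872443-97872502 on the minus strand, the CHAC1 window is chr15:40953236-40953295, the CHORDC1 window is chr11:90223063-90223122 on the minus strand and the HSPA8 window is chr11:123062155-123062214 on the minus strand.
BHLHE40: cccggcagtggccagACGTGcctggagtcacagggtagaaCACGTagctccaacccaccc
ANKRD37: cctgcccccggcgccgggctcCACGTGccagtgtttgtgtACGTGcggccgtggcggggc
ASNS: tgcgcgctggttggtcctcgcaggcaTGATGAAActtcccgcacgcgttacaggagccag
CHAC1: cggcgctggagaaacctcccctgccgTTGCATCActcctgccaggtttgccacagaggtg
CHORDC1: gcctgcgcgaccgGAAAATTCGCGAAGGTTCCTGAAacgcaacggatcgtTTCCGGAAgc
HSPA8: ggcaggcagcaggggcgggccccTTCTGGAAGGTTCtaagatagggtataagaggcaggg
Within the 250 bases before the start, 12 of the 23 hypoxia genes with a promoter entry held the core (52.2%), against 18.7% of 27305 promoters. The amino acid element was held by 5 of 29 genes of its list (17.2%), against 3.19% of all, and the heat shock element by 9 of 21 chaperone genes (42.9%), against 11.7%. A sterol regulatory element searched as TCACNCCAC was found in 1 of 18 cholesterol genes, that of SREBF2 (5.56%), against 0.875% of all promoters. The shares are over all list members with a promoter entry, and CA9 of the hypoxia genes and HSPA1A, HSPA1B, HSPA1L and HSPA6 of the chaperones hold a match but were too low to be tested. These are matches of letters, and binding was not measured here.

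The deposited values are FPKM, the fragments of a gene scaled to the gene's length and to the mapped fragments of the library. They were listed for 54562 Ensembl genes, of which 13801 had a mean of at least 1 FPKM and were tested. A library's FPKM added up to between 517170 and 589535, and the steps left by single fragments put the libraries at 0.993 to 1.21 times the depth of the EV library of passage 1, with the 3 libraries of passage 3 at 1.11 to 1.21. These depths are rough estimates, as only 22.1% to 45.9% of the low genes used in a library lay on its step. The cells matched their label in every library. All 8 of the HEK293 markers found in the table were expressed, with summed levels of 488 to 583 FPKM led by the keratin KRT8, while hepatocyte, blood and endothelial markers summed to under 1 FPKM. Fibroblast markers summed to 11.2 to 14.4 FPKM, most of it COL1A1 at 9.1 to 12.9 FPKM, with COL1A2 at 0 in 6 of the 9 libraries, and the epithelial markers summed to 14.7 to 20.4 FPKM, led by CAV1, with KRT5 at 0 in all. ADARB1, the plasmid gene, was at 7.66, 7.999 and 8.61 FPKM in the EV libraries of passages 1, 2 and 3 and between 1695 and 4145 FPKM in the plasmid libraries, as the labels require.

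The passages accounted for more of the variation than the plasmids did. Summed over genes, the passages took 53.7% of the sum of squares of log2(FPKM + 1), the transfection groups 26.2% and the rest 20.1%. After each group's mean was removed, the 9 pairs of libraries that shared a passage were correlated at 0.55 on average (0.33 to 0.81), which describes the data across genes. The 18 pairs from different passages were at -0.63 to 0.37, with a mean of -0.26 that the removal of the group means largely fixes. Pairs of 1 library from passage 1 and 1 from passage 2 were all positive (0.18 to 0.37), and the highest of them was above the lowest pair that shared a passage. Passage 3 stood apart. Its libraries were at 26.9 (EV), 21.1 (Short) and 16.8 (Long) on the first principal component, which held 54.4% of the variance. The EV libraries of passages 1 and 2 were at -0.40 and 4.03, and the plasmid libraries of those passages were between -21.6 and -13.3.

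**Figure D1:**
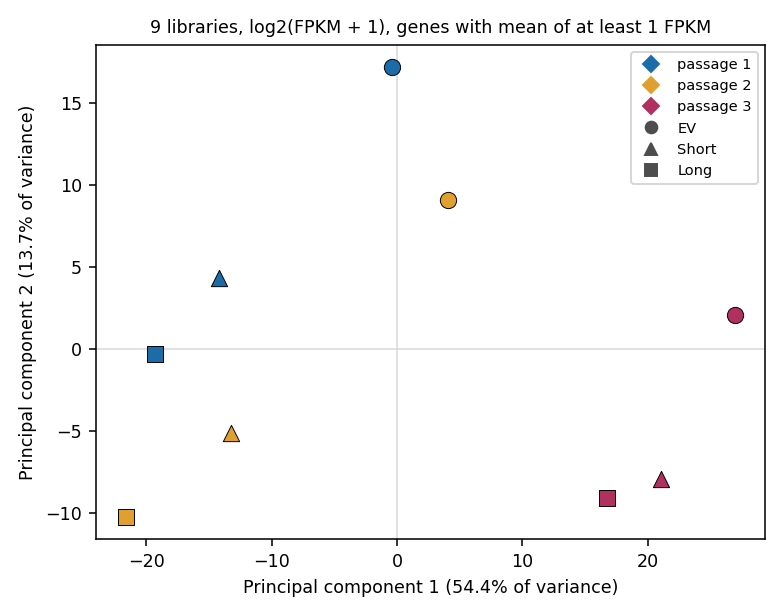
Scores of the 9 libraries on the first 2 principal components of log2(FPKM + 1), with the passage as colour and the transfection as symbol. The 3 libraries of passage 3 lie to the right of all others, and passages 1 and 2 differ mainly along the second component, where each passage 2 library lies below the passage 1 library of the same group.

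In one limma fit with the transfection group as a block, 5028 of the 13801 genes differed among the passages (moderated F test, adjusted p under 0.05), which is 36.4%. Passages 1 and 2 were close, with 10 genes higher in passage 2 (0.0725%) and 28 lower (0.203%). Against passage 1, passage 3 had 2047 genes higher (14.8%) and 2979 lower (21.6%), and against passage 2 it had 2373 higher (17.2%) and 2076 lower (15%). The differences were mostly small, with a median size of 0.43 (log2) for the genes higher in passage 3 than in passage 1 and 0.32 for those lower, and only 82 and 18 of them reached 1. The balance of directions depended on scaling: of the genes called between passages 3 and 1, 59.3% were lower in passage 3 in FPKM as deposited, 37.4% after scaling to equal sums (TPM), 44.6% after median ratio scaling and 39.5% among protein-coding genes alone. For passages 3 and 2 the corresponding shares were 46.7%, 37.7%, 35.8% and 40.3%, and for passages 2 and 1 they were 73.7%, 53.1%, 70.4% and 50%. The 38 calls between passages 2 and 1 were not stable: 5 to 37 were made when 1 library was left out, with 6 without the EV library of passage 1, 5 and 6 without the Long libraries of passages 1 and 2, 8, 15 and 23 without the Short libraries of passages 1, 2 and 3, and without a filter on low values none was, although 2729 genes then had an unadjusted p under 0.05 in limma. Without the Short library of passage 3, 2672 genes differed among the passages, 3040 between passages 3 and 1 and 2598 between passages 3 and 2, and the last count was 2590 and 2678 without the Short and Long libraries of passage 2. Groups without overlap were also counted. All 3 libraries of passage 1 lay above the other 6 in 6.82% of genes and below them in 1.32%, those of passage 2 above in 1.44% and below in 1.74%, and those of passage 3 above in 13.1% and below in 17.3%. These shares are the background for the gene lists described next, which were compiled with results of these data already known. For list counts in TPM, the background between passages 3 and 1 was 3022 of the 13801 genes higher and 1808 lower. It was 2685 and 2158 after median ratio scaling and 2161 and 2394 after correction for GC content.

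Most genes of the hypoxia response were lower in passage 3 than in passage 1, and fewer were lower in passage 2. Of 27 members tested, 23 differed among the passages, 20 were lower in passage 3 than in passage 1 and 1 was higher, and 9 of the 28 genes lower in passage 2 than in passage 1 came from this list, a count that was 6 in TPM, after median ratio scaling and after GC correction. The median difference was -0.47 (log2) between passages 3 and 1 and -0.30 between passages 2 and 1, against -0.05 and -0.03 over all genes tested. In 17 of the 27 members the 3 libraries of passage 1 lay above the other 6. Summed over the list, the level was 900, 938 and 832 FPKM in the EV, Short and Long libraries of passage 1, 754, 711 and 635 in passage 2 and 634, 609 and 596 in passage 3. Each of the passage 1 sums was above all others, and the Long library had the lowest sum in each passage.

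ANKRD37 (ENSG00000186352, chr4:186317175-186321782 of GRCh37), an ankyrin repeat protein widely used as a hypoxia marker, had the widest gap of the named genes in log2(FPKM + 1). The gap of APC, described below, was close to it (1.52 ± 0.20 (SE) between passages 3 and 1). ANKRD37 was at 16.5, 15.3 and 15.2 FPKM in the EV, Short and Long libraries of passage 1, at 7.13, 5.34 and 3.39 in passage 2 and at 6.41, 5.27 and 3.10 in passage 3. The passage 1 libraries were at more than 2 times the level of any other library. The log2 differences from passage 1 were -1.45 ± 0.14 (SE) for passage 2 (adjusted p = 0.0024) and -1.53 ± 0.14 for passage 3 (adjusted p = 0.00014).

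HILPDA (chr7:128095903-128098472), which coats lipid droplets when oxygen is low, was at 34.7, 33.5 and 32.5 FPKM in passage 1, at 16.9, 16.6 and 12.2 in passage 2 and at 13.7, 12.0 and 11.7 in passage 3. Its differences from passage 1 were -1.10 ± 0.08 (adjusted p = 0.00085) and -1.36 ± 0.08 (adjusted p = 3.4e-05), and passages 1 and 2 did not overlap. BHLHE40 (chr3:5021122-5027008), a transcriptional repressor that also takes part in the circadian clock, was at 47.3, 48.9 and 45.4 FPKM in passage 1 and between 16.3 and 27.4 in the other 6 libraries, with differences of -0.98 ± 0.08 and -1.22 ± 0.08. Its paralog BHLHE41, which is not on the list, had a mean of 8.01 ± 1.26 FPKM (SD, n = 3) in passage 1, 4.34 ± 0.58 in passage 2 and 3.25 ± 0.54 in passage 3. Here and below, the SD of a mean FPKM is over the EV, Short and Long libraries and includes differences between transfections. The BHLHE41 difference between passages 2 and 1 was -0.75 (adjusted p = 0.028, and 0.058 after GC correction). CXCR4, a chemokine receptor induced by hypoxia, was at 30.9 ± 1.96, 20.2 ± 3.81 and 14.6 ± 0.85 FPKM in the 3 passages, and the 3 groups did not overlap in any pair. DDIT4, an inhibitor of the growth kinase mTOR that is counted in the amino acid list below and not in this one, was at 96.2, 98.2 and 108 FPKM in passage 1, and the EV, Short and Long libraries then gave 69.3, 56.8 and 46.7 in passage 2 and 54.1, 47.1 and 29.7 in passage 3. Its difference between passages 3 and 1 was -1.23 ± 0.15 (adjusted p = 0.00038), while that between passages 2 and 1 did not pass the test (adjusted p = 0.061). STC1, a secreted glycoprotein, and ADAMTS1 were named by the rule for single genes and are on no list. STC1 was at 18.03, 19.3 and 13.2 FPKM in passage 1 and 8.50, 6.803 and 6.60 in passage 3 (-1.09 ± 0.10, adjusted p = 0.00017). ADAMTS1, a secreted protease of the extracellular matrix, was at 210.1 ± 14.0 FPKM in passage 1 against 129 ± 6.55 in passage 2 and 106 ± 1.17 in passage 3.

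Genes of glucose transport and glycolysis were lower in passage 3 than in both other passages. Of 19 glycolysis genes tested, 17 differed among the passages, 18 were lower in passage 3 than in passage 1 and 15 lower than in passage 2, none was higher in either comparison, and the median between passages 3 and 1 was -0.38. In 15 of the 19 the libraries of passage 3 lay below the other 6, in 8 those of passage 1 lay above, and 3 genes were lower in passage 2 than in passage 1. After GC correction 15 were lower in passage 3 than in passage 1, but 5 rather than 15 were lower than in passage 2. SLC2A3, a glucose transporter, was at 54.5, 55.9 and 42.5 FPKM in passage 1, at 37.4, 34.5 and 28.3 in passage 2 and at 23.3, 23.9 and 21.04 in passage 3. No passage overlapped another, and the differences from passage 1 were -0.60 ± 0.07 and -1.12 ± 0.07 (adjusted p = 0.0061 and 3.4e-05). SLC2A3 has a near-identical neighbour, SLC2A14, which was lower in passage 2 than in passage 1 (-0.57, adjusted p = 0.046, and 0.06 after GC correction), and how reads were divided between them is not known. SLC2A1, the common glucose transporter, was at 51.5 ± 7.24, 35.4 ± 2.67 and 29.9 ± 1.32 FPKM. HK2, the hexokinase that traps glucose in the cell, was at 28.8 ± 2.09, 19.1 ± 2.13 and 16.2 ± 0.13 FPKM. LDHA, which makes lactate, was at 1629, 1695 and 1456 FPKM in passage 1, at 1403, 1392 and 1294 in passage 2 and at 1109, 1032 and 976 in passage 3. The order was the same in EV, Short and Long cells, and passage 3 was lower than passage 1 by -0.62 ± 0.04 (adjusted p = 3.4e-05). PGK1, which makes ATP in glycolysis and is often used as a reference gene, was at 993 ± 137, 908 ± 82.7 and 594 ± 43.9 FPKM, a difference of -0.73 ± 0.05 between passages 3 and 1 (adjusted p = 5.6e-05).

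Part of the sterol and fatty acid genes were also highest in passage 1. Of 24 cholesterol synthesis genes, 10 were lower and 1 higher in passage 3 than in passage 1 (6 and 2 in TPM), and between passages 3 and 2 there were 3 in each direction. INSIG1, which holds back the sterol sensor when cholesterol is plentiful and is itself a target of that pathway, was at 302, 310.0 and 252 FPKM in passage 1, at 233, 222 and 202 in passage 2 and at 183, 160.4 and 158 in passage 3. The passages did not overlap, and all 3 pairs passed the test (-0.39, -0.78 and -0.39 for passages 2 and 1, 3 and 1, and 3 and 2, each ± 0.05). HMGCS1, an early enzyme of the pathway, was at 433 ± 31.8, 316 ± 60.2 and 298 ± 25.96 FPKM, and passages 2 and 3 both differed from passage 1 (-0.47 and -0.54, each ± 0.08), the former with an adjusted p of 0.044 that became 0.062 in TPM. SREBF2, the sterol-regulated transcription factor, was at 73.7 ± 2.10, 62.3 ± 2.16 and 53.1 ± 3.21 FPKM. Of 10 fatty acid synthesis genes, 7 were lower in passage 3 than in passage 1 and none was higher. SCD, the desaturase that makes oleate, was at 261 ± 13.0, 225 ± 8.74 and 190.3 ± 4.11 FPKM. FADS2, which puts double bonds into polyunsaturated fatty acids, was at 125 ± 10.4, 105 ± 7.69 and 87.8 ± 4.20 FPKM.

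The amino acid response separated passage 3 from both others. Of 35 genes of the ATF4 response and tRNA charging, 29 differed among the passages, 25 were lower and 3 higher in passage 3 than in passage 1, and 23 were lower and 3 higher than in passage 2. The medians were -0.35 and -0.32. In 22 of the 35 the 3 libraries of passage 3 lay below the other 6. PCK2, which makes phosphoenolpyruvate in mitochondria, was at 28.5, 29.6 and 29.6 FPKM in passage 1, at 22.7, 25.2 and 28.2 in passage 2 and at 15.2, 15.6 and 15.0 in passage 3. It was lower in passage 3 than in passage 1 by -0.90 ± 0.07 (adjusted p = 0.0001). ASNS (chr7:97480989-97501854, minus strand), asparagine synthetase, was at 156, 151 and 170 FPKM in passage 1, at 150, 133 and 140 in passage 2 and at 95.7, 88.8 and 90.3 in passage 3. Passages 1 and 2 were next to each other without overlap and passage 3 lay below both (-0.79 ± 0.05 and -0.62 ± 0.05, adjusted p = 3.7e-05 and 0.00038). PHGDH, the first enzyme of serine synthesis, was at 204 ± 9.69, 180 ± 5.39 and 130 ± 6.53 FPKM. ATF4 itself was at 310, 337 and 334 FPKM in passage 1, at 335, 373 and 385 in passage 2 and at 250, 247 and 247 in passage 3. Its level was highest in passage 2 in all 3 groups, although passages 1 and 2 overlapped, and it was lower in passage 3 than in passage 2 by -0.55 ± 0.05 (adjusted p = 0.00038).

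CHAC1 (chr15:41245160-41248710), which degrades glutathione and is a sensitive target of the ATF4 pathway, differed from most of this list in its rise from passage 1 to passage 2. Like ATF4, it was highest in passage 2 and lowest in passage 3. It was at 7.85, 7.94 and 8.27 FPKM in passage 1, at 11.6, 13.9 and 16.0 in passage 2 and at 5.99, 6.85 and 6.16 in passage 3. The 3 passages were apart from one another, with passage 2 highest, and within passage 2 the Long library was above the Short library and the Short library above EV. The difference was 0.71 ± 0.09 between passages 2 and 1 (adjusted p = 0.015) and -1.01 ± 0.09 between passages 3 and 2 (adjusted p = 0.00038). It was 1 of the 10 genes higher in passage 2 than in passage 1 and the only member of its list in that count. In TPM, 2 members of the list were higher. ADARB1 RNA was also highest in passage 2 in the plasmid libraries, as described below. The CHAC1 level of 11.6 FPKM in the EV library of passage 2 was above all 6 libraries of the other passages. The part of the plasmid level in the CHAC1 difference was not tested.

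**Figure D2:**
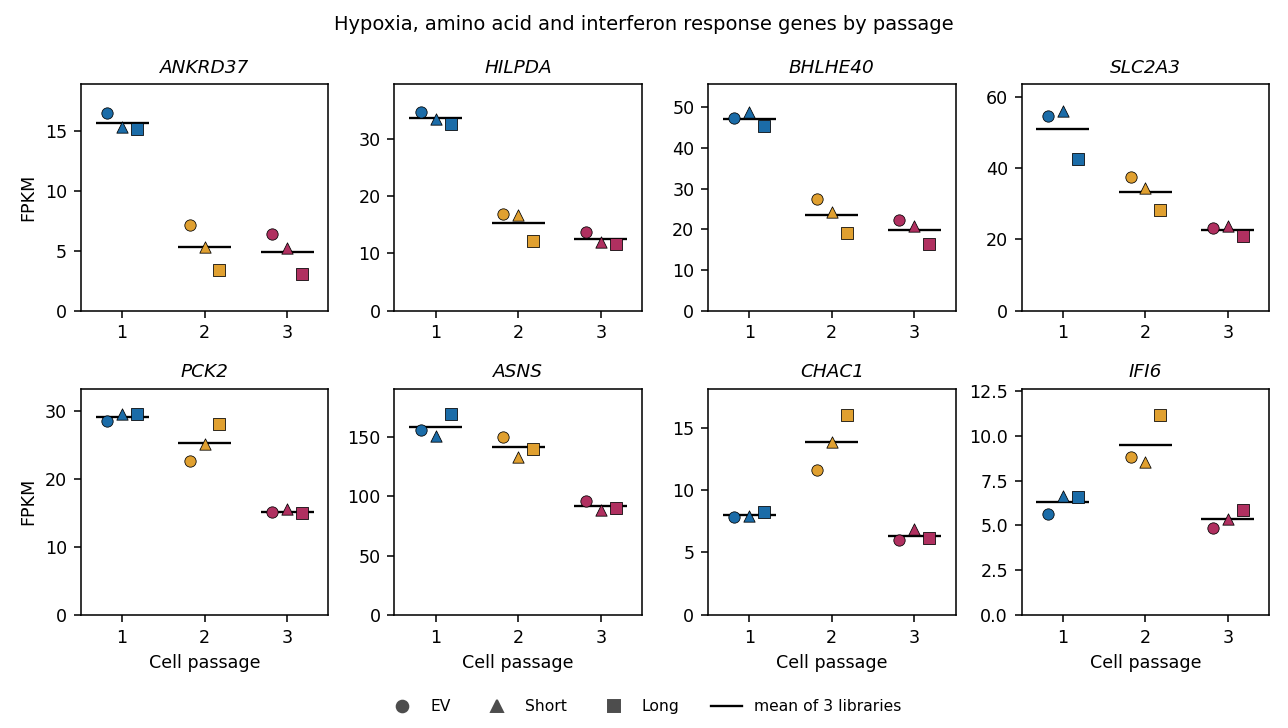
FPKM of 8 genes in each library by cell passage, with the transfection as symbol and the mean of the 3 libraries as a line, on axes that start at 0. ANKRD37, HILPDA, BHLHE40 and SLC2A3 were highest in passage 1, PCK2 and ASNS were lowest in passage 3, and CHAC1 and IFI6 were highest in passage 2.

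A pair of interferon genes was also highest in passage 2. IRF9, the DNA-binding part of the complex that type I interferon activates, was at 5.09, 3.87 and 5.40 FPKM in passage 1, at 7.52, 7.22 and 8.37 in passage 2 and at 5.97, 4.92 and 6.18 in passage 3. Passage 2 lay above both others, by 0.60 ± 0.08 over passage 1 (adjusted p = 0.02) and with passage 3 at -0.38 ± 0.08 from it (adjusted p = 0.0063). IFI6, an interferon-induced membrane protein, was at 6.29 ± 0.55, 9.51 ± 1.45 and 5.36 ± 0.52 FPKM (0.52 ± 0.09 between passages 2 and 1, adjusted p = 0.046, and 0.051 after GC correction). Of 33 interferon-stimulated genes tested, 3 had all passage 2 libraries above the other 6, these 2 and ISG15. IRF9 and IFI6 were the only ones to pass between passages 2 and 1 (ISG15, adjusted p = 0.1), while 14 were lower and 3 higher in passage 3 than in passage 2. UBE2L6, which attaches the ubiquitin-like protein ISG15, was at 5.16, 5.06 and 3.99 FPKM in passage 1, 5.83, 6.26 and 4.32 in passage 2 and 2.52, 2.90 and 2.40 in passage 3. IFITM1, a membrane protein that blocks virus entry, was at 66.0 ± 3.53, 66.8 ± 5.13 and 46.1 ± 2.64 FPKM.

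Other genes higher in passage 2 than in passage 1 were named by the rule for single genes. SRSF6, a splicing factor of the SR family, was at 38.5, 40.2 and 45.3 FPKM in passage 1, at 52.5, 52.5 and 58.8 in passage 2 and at 57.1, 58.5 and 59.6 in passage 3, so that passage 1 was below both others (0.39 ± 0.05 and 0.49 ± 0.05, adjusted p = 0.02 and 0.00028). NCOA5, a nuclear receptor coactivator, was at 15.1 ± 0.29, 20.5 ± 1.45 and 18.9 ± 0.86 FPKM and likewise lay lowest in passage 1. TMEM160, a small mitochondrial protein, was at 11.6 ± 2.62, 16.0 ± 3.24 and 13.4 ± 1.86 FPKM, and each group's own difference between passages 2 and 1 was positive although the passages overlapped (0.44 ± 0.07, adjusted p = 0.048, and 0.095 after GC correction). PIGY, a subunit of the enzyme that starts the GPI anchor, was at 9.78 ± 2.34, 19.7 ± 4.54 and 20.4 ± 2.96 FPKM, and passage 1 was below both others (0.94 and 1.00, each ± 0.15), the former with an adjusted p of 0.039 that became 0.065 after GC correction. PIGY shares a transcript with PYURF, so that its value is uncertain.

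Most chaperones of the heat shock response were higher in passage 3. Of 18 tested, 10 were higher and 3 lower in passage 3 than in passage 1, and 11 higher and 1 lower than in passage 2, with medians of 0.23 and 0.23. None passed between passages 2 and 1. HSPH1 (chr13:31709110-31736525, minus strand), a nucleotide exchange factor of the HSP70 system, was at 32.9, 31.3 and 23.6 FPKM in passage 1, at 33.2, 31.6 and 24.9 in passage 2 and at 67.7, 64.3 and 60.1 in passage 3. Passages 1 and 2 were alike in each transfection group and passage 3 was above both, by 1.12 ± 0.07 and 1.08 ± 0.07 (adjusted p = 3.4e-05 and 0.0001). HSP90AA1, the inducible form of HSP90, was at 388, 375 and 250.3 FPKM, then 392, 349 and 232, then 657, 614 and 580.3. Its Long library was the lowest of each passage, and passage 3 was higher than passage 1 by 0.89 ± 0.10. CHORDC1, a partner of HSP90, was at 27.5 ± 3.89, 27.4 ± 5.14 and 53.3 ± 1.44 FPKM, and HSPA8, the main HSP70 of unstressed cells, at 386 ± 30.99, 404 ± 39.6 and 498 ± 28.4. The small heat shock protein HSPB1 differed in the other direction, with 118 ± 9.44, 109.9 ± 10.9 and 89.8 ± 8.21 FPKM (-0.39 ± 0.05 between passages 3 and 1, adjusted p = 0.00058).

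Ribosome assembly factors and ribosomal proteins differed in opposite directions. Of 40 nucleolar assembly factors tested, 26 were higher in passage 3 than in passage 1 and 22 higher than in passage 2, none was lower in either comparison, and the median was 0.25 between passages 3 and 1. DDX21 (chr10:70715891-70744824), a nucleolar RNA helicase, was at 99.95, 105 and 72.3 FPKM in passage 1, at 99.1, 76.0 and 62.7 in passage 2 and at 166, 173 and 171 in passage 3. The 3 libraries of passage 3 were close together, whereas in passages 1 and 2 the Long library was the lowest. The differences were 0.89 ± 0.11 and 1.12 ± 0.11 (adjusted p = 0.00049 and 0.00042). LYAR, a nucleolar growth regulator, was at 22.4 ± 2.38, 19.4 ± 2.70 and 33.6 ± 1.13 FPKM, and WDR43, a part of the complex that processes the small subunit rRNA, at 37.5 ± 4.94, 40.8 ± 1.28 and 60.6 ± 1.90. Of 76 cytosolic ribosomal protein genes, 60 were lower in passage 3 than in passage 1 and 54 lower than in passage 2, and none was higher, but the differences were small, with a median of -0.20 between passages 3 and 1. In 52 of the 76 the libraries of passage 3 lay below the other 6. RPL3 was at 1140, 1193 and 1144 FPKM in passage 1, at 1096, 1147 and 1142 in passage 2 and at 861, 895 and 920 in passage 3. RPS14 was at 1499 ± 67.7, 1500 ± 57.2 and 1226 ± 32.3 FPKM. Ribosomal protein genes have many processed copies in the genome, as have HSP90AA1, HSPA8 and the thymosins below, and reads that fit several copies make their values uncertain. The count of lower ribosomal protein genes between passages 3 and 1 was 40 in TPM, 47 after median ratio scaling and 39 after correction for GC content. The direction of both groups was the same under each of these.

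Genes with transcripts rich in A and T were mostly higher in passage 3. Across 13398 genes with a GC value, the difference between passages 3 and 1 was related to the GC content of the longest transcript by a rank correlation of -0.46, that between passages 3 and 2 by -0.60 and that between passages 2 and 1 by 0.24. Genes are not independent replicates, so these are descriptions. The rank correlations with the length of that transcript were 0.11 for passages 3 and 1, 0.21 for passages 3 and 2 and -0.19 for passages 2 and 1. In the tenth of genes with the longest transcripts, 354 were higher and 266 lower in passage 3 than in passage 1, and 464 were higher and 132 lower than in passage 2. The genes higher in passage 3 than in passage 1 had a median GC content of 39.3% and a median length of 4690 nt, those lower 52.5% and 3441 nt, and all genes tested 47.8% and 3730 nt. In the tenth of genes with the least GC, 764 of 1343 were higher in passage 3 than in passage 1 and 31 lower, and in the tenth with the most GC 48 of 1339 were higher and 362 lower. For 582 genes of at least 7000 nt and under 40% GC, the median difference between passages 3 and 1 was 0.26 in the EV libraries, 0.34 in the Short libraries and 0.48 in the Long libraries. Within the EV libraries alone the rank correlation between GC and the difference between passages 3 and 1 was -0.53, within the Short libraries -0.38 and within the Long libraries -0.34. Each library's deviation from the mean of all 9 had its own relation to GC: the rank correlations were -0.66, -0.39 and -0.38 in the EV, Short and Long libraries of passage 3, -0.01, 0.29 and 0.23 in those of passage 1, and -0.29, 0.68 and 0.56 in those of passage 2. GC content moves with RNA quality and library preparation as well as with the kind of gene, and their part in the passage differences was not tested. After each library was corrected for GC by a loess curve, 4155 genes differed among the passages, and between passages 3 and 1 there were 2161 higher and 2394 lower.

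**Figure D3:**
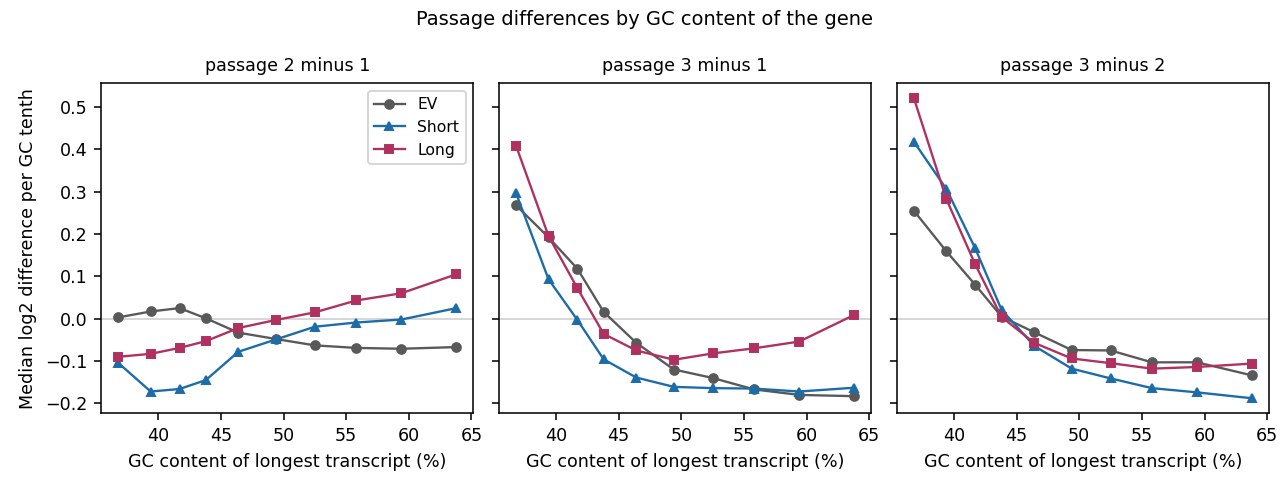
Median log2 difference between passages in 10 bins of like size of the tested genes ordered by the GC content of the longest transcript, for EV, Short and Long libraries separately. Between passage 3 and either other passage the line starts above 0 at low GC in all 3 groups and is highest there in the Long libraries, and between passages 2 and 1 the plasmid libraries and EV slope in opposite directions.

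Several genes with large differences upward in passage 3 had long transcripts of low GC content. CENPF (chr1:214776528-214837917), a large protein of the kinetochore, was at 38.7, 11.9 and 7.87 FPKM in the EV, Short and Long libraries of passage 1, at 29.0, 21.4 and 7.91 in passage 2 and at 57.5, 47.2 and 33.9 in passage 3. The EV library of passage 1 lay above the Long library of passage 3, so the passages overlapped, yet passage 3 was highest within each group (1.48 ± 0.24 over passage 1, adjusted p = 0.0014). APC, a scaffold that controls beta-catenin, was at 10.5, 3.47 and 2.34 FPKM, then 9.52, 5.47 and 3.17, then 18.2, 14.2 and 12.8, so that every passage 3 library was above the other 6 (1.52 ± 0.20, adjusted p = 0.00051). RANBP2, a large protein of the nuclear pore, was at 14.9, 6.41 and 3.74 FPKM, then 14.4, 9.04 and 4.51, then 25.9, 22.7 and 17.2. PHIP, a bromodomain protein, was at 10.1 ± 8.39, 11.2 ± 5.67 and 25.7 ± 5.82 FPKM, and in each passage its level was highest in the EV library and lowest in the Long library. ATRX, a chromatin remodeller, was at 7.29 ± 6.86, 7.69 ± 4.75 and 17.9 ± 4.88 FPKM. Its passages overlapped, with the EV library of passage 1 at 15.2 FPKM and the Long library of passage 3 at 12.3. Whether the gain in passage 3 was larger in plasmid libraries than in EV was tested over all genes as the difference, between plasmid and EV libraries, in the gap from the mean of passages 1 and 2. One gene of the 13801 passed (0.00725%), 853 had an unadjusted p under 0.05, and the values for CENPF, APC, RANBP2 and ATRX were 0.98, 0.89, 0.86 and 1.22 with adjusted p of 0.67, 0.61, 0.61 and 0.61.

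The median GC content was 42.2% in the mitosis list, 46.6% in the chromatin list and 41.2% in the list of SR and hnRNP proteins, and the median lengths were 3617, 8068 and 4186 nt. Of 50 mitosis genes, 24 were higher and 7 lower in passage 3 than in passage 1 (median 0.19), and after GC correction 23 were higher and 3 lower (median 0.11). ECT2, which starts cytokinesis, was at 27.7, 17.8 and 14.5 FPKM in passage 1, 26.1, 19.6 and 13.8 in passage 2 and 40.1, 35.9 and 31.6 in passage 3. KIF11, the motor that separates the spindle poles, was at 21.4 ± 4.93, 20.9 ± 4.47 and 33.7 ± 2.63 FPKM. Of 51 S phase genes 5 were higher and 12 lower, and 10 higher and 2 lower in TPM, so no direction can be given for that list. CCNE2, the cyclin of S phase entry, was at 6.50 ± 1.89, 7.44 ± 2.09 and 11.2 ± 0.73 FPKM. Of 34 chromatin helicases and remodellers, 13 were higher and 4 lower in passage 3 than in passage 1. CHD1, which remodels nucleosomes in transcribed genes, was at 30.96, 16.9 and 14.7 FPKM, then 28.8, 19.5 and 12.7, then 49.6, 49.4 and 41.2, and BAZ1A was at 20.4 ± 3.77, 17.9 ± 2.58 and 32.7 ± 1.43. Of 36 SR and hnRNP proteins, 19 were higher and 5 lower (median 0.20), but after GC correction 12 were higher and 6 lower with a median of 0.04. SRSF11 was at 125 ± 10.4, 125 ± 18.3 and 179.5 ± 3.12 FPKM, and its difference between passages 3 and 1 went from 0.52 to 0.18 with that correction. Of 188 zinc finger genes on chromosome 19 (median GC content 42.3%), 54 were higher in passage 3 than in passage 1 and 4 lower. After GC correction 43 were higher and 7 lower. Between passages 3 and 2, 42 were higher and 3 lower, but 11 and 8 after that correction. For the hypoxia list the same correction gave 21 lower and none higher, for the amino acid list 22 lower and 1 higher, for chaperones 11 higher and 2 lower and for ribosome biogenesis 32 higher and none lower.

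**Figure D4:**
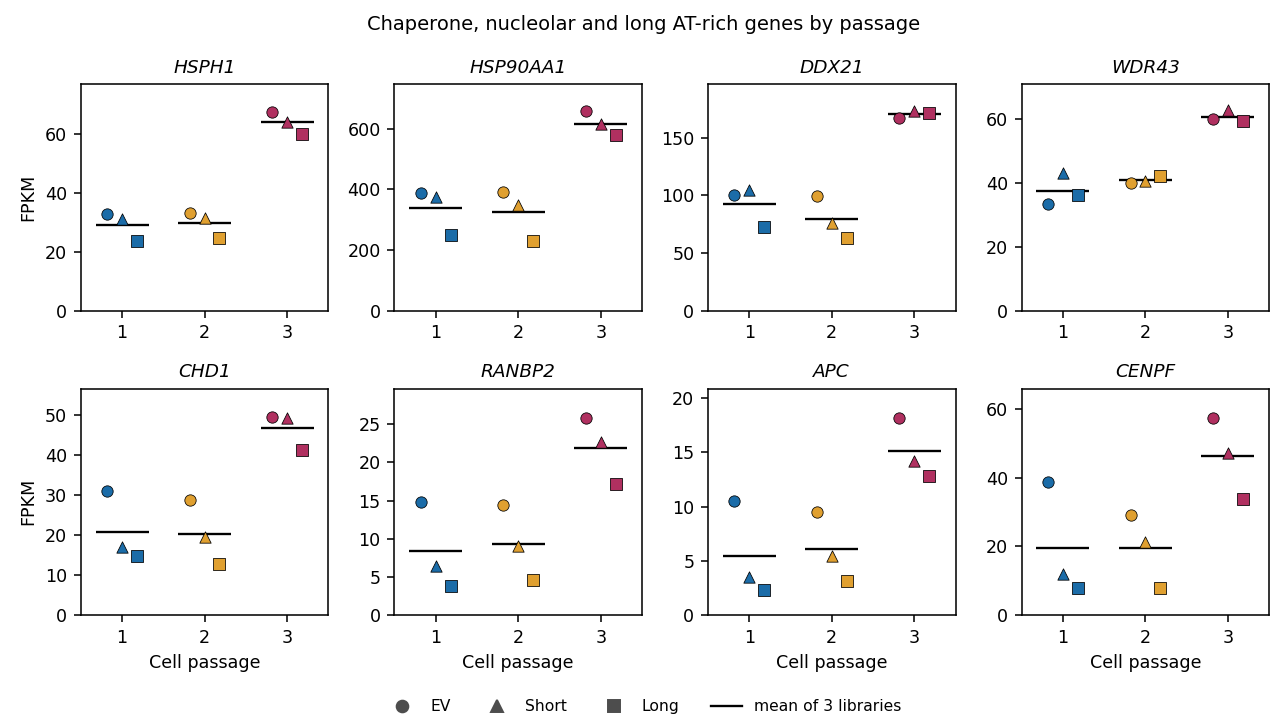
FPKM of 8 genes in each library by cell passage, with the transfection as symbol and the mean of the 3 libraries as a line, on axes that start at 0. HSPH1, HSP90AA1, DDX21 and WDR43 were high in all 3 libraries of passage 3, and in CHD1, RANBP2, APC and CENPF the EV library lay above the plasmid libraries in every passage.

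Matrix, cytoskeletal and immediate early genes that passed between passages 3 and 1 were mostly lower in passage 3. Of 41 genes for extracellular matrix and adhesion, 25 were lower and 4 higher in passage 3 than in passage 1 (median -0.35), and 24 of the 41 had all 3 passage 3 libraries below the other 6. FN1, fibronectin, was at 59.5, 59.1 and 54.5 FPKM in passage 1, at 48.4, 46.1 and 45.8 in passage 2 and at 35.8, 35.3 and 36.4 in passage 3. The passages did not overlap (-0.67 ± 0.05 between passages 3 and 1, adjusted p = 0.0001), and FN1 has a GC content of 42.2%, below the median of all genes. SPARC, a collagen-binding matrix protein, was at 148 ± 2.55, 129 ± 6.51 and 94.6 ± 7.34 FPKM. NID1 and HSPG2, which join the networks of the basement membrane, were at 62.9 ± 2.48, 52.0 ± 2.69 and 42.9 ± 2.28 FPKM and at 5.62 ± 0.86, 4.16 ± 0.43 and 2.58 ± 0.48 FPKM. Of 41 cytoskeleton genes, 23 were lower and 1 higher, against 15 and 2 both in TPM and after GC correction. TMSB4X, which sequesters actin monomers, was at 1450, 1519 and 1534 FPKM in passage 1, at 1361, 1326 and 1448 in passage 2 and at 1051, 987 and 1052 in passage 3 (-0.54 ± 0.04, adjusted p = 6e-05). TMSB10, a thymosin of the same kind, was at 1072 ± 33.4, 893 ± 83.6 and 738 ± 39.2 FPKM. The 1 gene of the list that was higher, NEFM, encodes a neurofilament and is also a marker of this cell line, and it was at 53.5 ± 4.79, 55.7 ± 1.43 and 73.1 ± 2.34 FPKM. Of 24 immediate early genes, 15 were lower and none higher, against 10 and 1 in TPM and 9 and 2 after GC correction. KLF10, an early gene of TGF-beta signalling, was at 20.97 ± 1.45, 16.2 ± 0.45 and 12.5 ± 0.37 FPKM. HES1, the main target of Notch, was at 34.1, 35.1 and 32.7 FPKM in passage 1, at 26.9, 25.96 and 24.8 in passage 2 and at 22.9, 22.0 and 20.9 in passage 3, with no overlap between passages. Of 25 targets of Wnt, Notch and BMP, 8 were lower and 2 higher (4 and 2 in TPM), and of 16 targets of YAP and TEAD 4 were lower and 1 higher.

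Other lists held fewer calls or depended on scaling. Over all 13801 genes tested, 3022 were higher and 1808 lower in passage 3 than in passage 1 in TPM, against 2047 and 2979 in FPKM. Among 25 targets of p53, 6 were higher and 7 lower in passage 3 than in passage 1, and CDKN1A, the p21 inhibitor of the cell cycle, was at 47.9 ± 5.15, 46.3 ± 2.33 and 31.8 ± 1.00 FPKM. Of 33 lysosome genes 14 were lower and none higher (15 and 6 after GC correction), led by the protease CTSB at 93.4 ± 3.67, 84.6 ± 2.23 and 66.0 ± 3.70 FPKM. Of 24 genes of the unfolded protein response 7 were lower and 2 higher (4 and 3 in TPM), and DNAJC10, a reductase of the endoplasmic reticulum, was higher in passage 3, at 27.4 ± 5.02, 25.8 ± 5.21 and 45.5 ± 2.35 FPKM. Of 18 NRF2 targets 7 were lower and 2 higher (3 and 4 in TPM), of 31 proteasome genes 4 were higher and none lower (18 and none in TPM, 13 and 5 after GC correction), with PSMA3 of the core particle at 83.9 ± 6.39, 79.5 ± 8.87 and 114 ± 0.91 FPKM (called in FPKM but not after GC correction), and of 75 nuclear genes of the respiratory chain 30 were lower and 2 higher (10 and 6 in TPM). Of 13 histone genes, H1-2, H2BC21 and H2AC6 passed between passages 3 and 1, 1 of them higher and 2 lower, but none of these 3 passed the F test or held after GC correction, and in TPM 2 histone genes were higher and none lower. Of 11 small nucleolar RNAs 3 were higher and 1 lower between passages 3 and 1, 2 of the 11 passed the F test, and values of such short RNAs in polyadenylated libraries vary widely: SNORA73 was at 2.68, 6.11 and 6.53 FPKM in passage 1 and at 9.30, 10.4 and 17.98 in passage 3.

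Some genes outside the lists had large differences downward in passage 3. CRYL1, an enzyme of the uronate cycle, was at 16.9, 17.2 and 14.1 FPKM in passage 1, 15.4, 15.0 and 13.9 in passage 2 and 7.93, 6.68 and 8.16 in passage 3 (-0.99 ± 0.09 between passages 3 and 1, adjusted p = 0.00017). PLPPR3, a phospholipid phosphatase-related membrane protein, was at 11.2 ± 2.06, 10.1 ± 1.81 and 4.41 ± 0.48 FPKM. IL32, a cytokine, was at 6.26 ± 0.76, 6.38 ± 0.29 and 3.33 ± 0.57 FPKM, and OLFM2, a secreted olfactomedin, at 5.52 ± 0.92, 6.33 ± 0.02 and 3.26 ± 0.26. In each of these 4 genes the passage 3 libraries lay below the other 6.

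Messenger RNAs made in mitochondria did not move as one. Of 13 tested, 4 were lower and 2 higher in passage 3 than in passage 1, and 3 were lower in passage 2 than in passage 1, none of which held after GC correction (adjusted p of 0.069 for MT-ND5, 0.099 for MT-ND4 and 0.14 for MT-ND4L). MT-ND5, a subunit of complex I, was at 2081, 2266 and 2289 FPKM in passage 1, at 1567, 1896 and 1868 in passage 2 and at 1481, 1589 and 1684 in passage 3 (-0.32 ± 0.04 and -0.48 ± 0.04 from passage 1). MT-CO1, a subunit of complex IV, was at 9022 ± 546, 8071 ± 630.1 and 6737 ± 296 FPKM. MT-ND2, also of complex I, was at 1283 ± 195, 1559 ± 325 and 1597 ± 195 FPKM and was higher in passage 3 (0.32 ± 0.06, adjusted p = 0.0024). MT-ND4, a further subunit of complex I, was at 4609 ± 198, 3835 ± 295 and 3687 ± 165 FPKM. These 4 mRNAs come from the same precursor strand. Together the mitochondrial mRNAs made up 8.51% to 10.2% of the FPKM of a library, with no passage apart from the others.

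Genes used to normalise measurements differed too. Of 18 reference genes tested, 9 were lower and none higher in passage 3 than in passage 1, and 4 were lower in TPM. GAPDH was at 2230, 2438 and 2211 FPKM in passage 1, at 2147, 2372 and 2118 in passage 2 and at 1856, 1981 and 1938 in passage 3. Passage 3 lay below both others (-0.25 ± 0.04, adjusted p = 0.00079), and after GC correction the difference was -0.11 with an adjusted p of 0.032. ACTB was at 1221 ± 110.4, 1083 ± 109.7 and 1083 ± 111 FPKM, a difference of -0.17 ± 0.05 that lost its call after scaling to TPM and after GC correction. ADAR, the other widely expressed editing enzyme, was at 63.2, 67.25 and 66.15 FPKM in passage 1, 60.5, 65.2 and 68.1 in passage 2 and 59.3, 61.7 and 60.1 in passage 3, and did not pass the F test (adjusted p = 0.17).

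The level of the plasmid gene itself varied with the passage. ADARB1 RNA in the Short libraries was at 1889, 4145 and 2735 FPKM in passages 1, 2 and 3, and in the Long libraries at 1695, 3449 and 2080. Both plasmids gave the same order, with passage 2 highest and passage 1 lowest. Relative to passage 1 the ratios were 2.19 and 2.04 in passage 2 and 1.45 and 1.23 in passage 3, which is 2.12 ± 0.11 and 1.34 ± 0.16 (SD over the 2 plasmids). In the EV libraries, where the RNA comes from the cell's own gene, the ratios were 1.04 and 1.12. In the 6 plasmid libraries alone, with the plasmid as a block, the log2 differences were 1.08 ± 0.05 between passages 2 and 1, 0.41 ± 0.05 between passages 3 and 1 and -0.66 ± 0.05 between passages 3 and 2 (adjusted p = 7.5e-06, 0.00031 and 7.2e-05 in limma, with 2 residual degrees of freedom). Fewer transfected cells and less plasmid RNA per cell cannot be told apart. The plasmid libraries of passage 2, which had the most ADARB1, also had the strongest positive relation to GC among the 9 libraries (0.68 and 0.56).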

How the data were processed

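The authors aligned the paired reads with TopHat 1.4.1, first to the Ensembl transcriptome and next to the hg19 genome, and deposited FPKM per Ensembl gene for each of the 9 libraries. Cufflinks is named in the submitters' processing notes without a version or role. From these FPKM values, log2(FPKM + 1) was computed for 13801 genes whose mean reached 1 FPKM, and one model with passage and transfection group was fitted in limma 3.58.1 (R 4.3.3, moderated F and pairwise tests, intensity trend, residual df 4). P-values were adjusted by Benjamini-Hochberg over all genes tested, with calls at 0.05. A log2 difference on this scale understates the change of low genes. Deposited FPKM give no counts, so no counting intervals are given. Alternatives changed the pseudocount to 0.1, the scaling, the filter, the block, the trend and the libraries, or corrected for GC content or length by loess (span 0.3). The correction for both together, the plasmid by passage test and the test of ADARB1 in the plasmid libraries were added after seeing the data.

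Genes were named if among the 8 most changed per direction and pair of passages (mean of at least 5 FPKM, same direction in all groups), among the 4 members of a list with the largest F, or 1 of 4 fixed genes (ADARB1, ADAR, GAPDH and ACTB). HSPB1, SLC2A14, MT-ND2, ISG15 and 2 histone genes (H1-2 and H2BC21) were outside this rule and chosen after their values were seen. One gene that the rule named is not reported here. The members and lists were chosen with earlier results of these data known. Gene extents are from GENCODE v44lift37 (GRCh37) and promoters from RefSeq (GRCh38.p14).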

Additional observations from a re-analysis of the deposited data

Results flagged for a closer look

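The difference between passage 3 and the mean of passages 1 and 2 was itself different in plasmid and EV libraries for SMIM10L1, a small integral membrane protein, by 1.97 (log2; adjusted p = 0.0265 in limma). Its level was 3.41, 6.38 and 3.57 FPKM in the EV, Short and Long libraries of passage 1, 5.68, 6.82 and 5.53 in passage 2 and 0.839, 8.85 and 6.42 in passage 3. The EV library of passage 3 was the lowest of the 9, and the EV side of the test rests on that single library. The call was lost after median ratio scaling, without a trend, after GC correction and after GC and length correction.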

How the results depend on the processing

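The passages were compared within the transfection groups, which served as blocks. Pairing by the replicate number was not possible, because that number is the factor that was compared. The 76 named genes gave 141 differences, all of them called in the fit described above. Differences that were not called were left out. Most were chosen for their size or their call in these same libraries, so a steady direction was largely fixed in advance. None reversed in 3238 values under the alternatives. Of these values 264 lost their call, most often without the transfection block (29), without a filter on low values (26), without the Long libraries (23) and without the Short libraries (22), and none under the length correction or a minimum mean of 5 FPKM.

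The count among the 3 passages (5028) became 3297 without the transfection block, 2861 without a filter, 2221 without the Short libraries and 2266 without the Long libraries, and ranged from 2672 to 5245 when 1 library was left out. Between passages 2 and 1 (38) it was 2 without the block, 12 without a trend, 0 without a filter (2729 at an unadjusted p under 0.05 in limma), 91 without the EV libraries, 6 without the Short libraries and 5 without the Long libraries, with 5 to 37 when 1 library was left out. Between passages 3 and 1 (5026) it was 2808 and 3120 without the Short and Long libraries, and 3040 to 5126 when 1 library was left out. Between passages 3 and 2 (4449) it was 2657 without a filter, 2099 and 1856 without the Short and Long libraries, and 2590 to 4479 when 1 library was left out. Of the hypoxia list 14 and 15 members differed without the Short and Long libraries, against 23. The ADARB1 ratio of passage 3 to passage 1 was 1.59 relative to GAPDH, which was itself lower in passage 3. The plasmid by passage test called no gene after median ratio scaling (951 at an unadjusted p under 0.05), without a trend (864), after GC correction (961) and after GC and length correction (887), and called 22 without a filter, against 1. Fits without a group use fewer libraries and the fit without a filter tests more genes; the cause of the other changes was not tested.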
